A study of Homo sapiens with 5 samples.

Results

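Contacts between the short and the long arm of a chromosome were described in Hi-C maps of RMG1, an established human cell line from an ovarian clear cell carcinoma. A contact was counted as inter-arm where it joined a bin of the short arm and a bin of the long arm of the same chromosome, in bins of 1 Mb on the hg19 build. The limit between the arms was a fixed position for each of 17 chromosomes (1 to 12, 16, 17, 18, 19 and 20), and bins within a window of 2 Mb at that position belonged to neither arm. This gave 81414 inter-arm bin pairs of 3840606 pairs of different bins in the genome, over 2306 bins in 34 arms. They were set against 99155 pairs within an arm of the same chromosomes and against 3638266 trans pairs, which join different chromosomes. The arms were set by position alone. Besides, 39 of 2811 bins were left out for a low recovered total in the control.

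Hi-C cuts and ligates DNA inside fixed nuclei, and the share of ligations between 2 places in the genome measures how often they lie close together. The study has 5 libraries. The control is a single library of cells that carry a control hairpin RNA (labelled shControl) and wild-type ARID1A and CAPH2. The ARID1A knockout group (KO; CRISPR, CAPH2 wild type) and the CAPH2 knockdown group (KD; labelled shCAPH2, ARID1A wild type) have 2 libraries each. The control shares the hairpin method with the KD cells and not with the KO cells, so an effect of the CRISPR procedure cannot be told apart from an effect of ARID1A loss. The labels do not say whether the KO is a clone or a pool, nor whether replicates came from separate cultures. The p-values therefore measure only the spread between these samples, which may be technical. Neither the knockout nor the knockdown can be checked from contact maps, since they hold no transcript or protein level.

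ARID1A binds DNA within BAF, a complex that remodels nucleosomes. CAPH2, also called NCAPH2, belongs to condensin II, a loop-extruding ring that shortens chromosomes along their axis and is present in the nucleus during interphase. In interphase nuclei each chromosome fills a territory, its arms fold largely by themselves, and the centromere marks the border between them. Loss of condensin II is known in human cells to be followed by clustering of centromeres of different chromosomes and by weaker separation of territories.

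Recovered totals were 47.9 M contacts (megacontacts) in the control, 31.4 and 32.5 M for KO and 55.7 and 84.9 M for KD, within-bin contacts included. Inter-arm bin pairs held 1.00 M contacts in the control, 0.568 and 0.515 M in the KO and 1.16 and 1.74 M in the KD libraries, which is 12.3, 6.98, 6.32, 14.2 and 21.4 contacts per pair. Single bin pairs are therefore measured coarsely, above all in the KO libraries, while sums over arms are counted precisely. The KO libraries stood apart in the yield of reads before balancing. The ends of the control's compartment axis were named by contacts alone, A being the end with more trans over cis signal. A usually stands for open, gene-rich chromatin and B for closed chromatin, which was not checked here. Bins at the A end had a median recovered total of 1.23 and 1.21 times the library's median in the KO. It was 0.916 in the control, with 0.861 and 0.892 in the KD. Bins at the B end had 0.775 and 0.760 in the KO, against 1.00 in the control, with 1.04 and 1.02 in the KD. Balancing scales such yields away in the deposited signal, and their part in the results on KO libraries was not tested. The KO libraries also differed from each other more than the KD libraries did. Over 780 arm pairs the SD between libraries of a group was 0.0923 (log2) for KO and 0.0156 for KD, and inter-arm contacts per bin differed with a chi-square per degree of freedom of 6.39 between the KO and 1.29 between the KD libraries.

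In both KO libraries a smaller share of the signal joined the arms than in control cells, and the KD libraries lay close to the control. Of the balanced signal between different bins, the inter-arm share was 3.96% in the control, 3.52% and 3.35% in the KO (mean 3.44% ± 0.12, SD, n = 2) and 3.91% and 3.90% in the KD libraries (mean 3.90% ± 0.00507, SD, n = 2). The 2 KO values lay below all others. In recovered contacts, before balancing, the share was 3.80% in the control (95% exact binomial interval 3.79% to 3.80%, counting error only), 3.49% and 3.29% in the KO and 3.77% and 3.77% in the KD libraries. The signal within arms of the 17 chromosomes took 45% in the control, 45.7% and 44.4% in the KO and 42.9% and 42.8% in the KD, and the trans signal took 41.4%, 40.9%, 42.8%, 44.0% and 44.1% in the same order. The KD libraries thus had a lower share within arms and a higher trans share than the control, at a similar inter-arm share. Within the cis signal of the 17 chromosomes alone, inter-arm pairs took 8.08% in the control, 7.15% and 7.01% in the KO and 8.34% and 8.33% in the KD. On that scale the KO lay below and the KD above the control.

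Inter-arm pairs were far above the level of trans pairs in every library. Per bin pair the inter-arm signal was 4.27 times the trans signal in the control, 3.85 and 3.50 times in the KO and 3.97 and 3.95 times in the KD. Among chromosomes of the control this fold over trans ran from 2.53 (chromosome 2) to 15.2 (chromosome 18), with a median of 4.98. Chromosome 19 followed at 9.47 and chromosome 16 at 7.78, and chromosome 3 was the second lowest at 3.01. Chromosomes 16, 18, 19 and 20, all short, were the 4 highest, while chromosome 17, also short, lay at the median. Both KO libraries lay below the control on 15 of 17 chromosomes, and both KD libraries on 17 of 17. On chromosome 18 the fold over trans was 15.2 in the control, 13 and 9.85 in the KO and 11.4 and 11.4 in the KD.

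When the distance along the chromosome was held equal, contacts between arms were somewhat fewer than contacts within an arm on most chromosomes of the control, and the chromosomes differed widely. For each distance with at least 5 pairs of both kinds on a chromosome, the mean inter-arm signal was set against the mean same-arm signal, and the sums over distances gave 1 log2 ratio per chromosome and library. The control's median over 17 chromosomes was -0.26, which is 0.833-fold, and 3 chromosomes had ratios above 0. The highest was chromosome 9, with 1.12 in the control (2.17-fold), 0.98 and 0.87 in the KO and 1.04 and 1.04 in the KD. Chromosome 3 followed with 0.27, then 0.16 and 0.26 in the KO and 0.37 and 0.37 in the KD. Chromosome 1 had 0.10 in the control, 0.14 and -0.10 in the KO and 0.14 and 0.15 in the KD. Chromosome 9 stood above all others in every library, chromosome 3 was above 0 in all 5, and chromosome 1 was below 0 in KO replicate 2. On chromosome 3, 131 inter-arm pairs of the control had over 5 times the mean same-arm signal at their distance. No other chromosome had more than 38 such pairs, and their part in the ratio was not tested.

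The lowest ratio was that of chromosome 19, a gene-rich chromosome, with -0.84 in the control (0.560-fold), -0.70 and -0.51 in the KO and -0.80 and -0.78 in the KD. Chromosome 7 had -0.65 in the control, -0.75 and -0.65 in the KO and -0.50 and -0.53 in the KD. Chromosome 20 had -0.46, -0.54, -0.62, -0.31 and -0.28 in the same order. In the control the remaining 11 chromosomes lay between -0.40 (chromosome 2) and -0.03 (chromosome 17). Chromosomes 9, 1 and 16 have the longest stretches without a measured bin between the arms, with 33, 25 and 12 Mb from the start of the last short-arm bin to that of the first long-arm bin, against 4 to 8 Mb on the other 14. Distance is counted along the reference, so these stretches enter the inter-arm distances in full, and their part in the ratios was not tested. Equal distances existed for 20.2% of the inter-arm pairs of chromosome 9 and for up to 76.8% (chromosome 4).

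**Figure D1:**
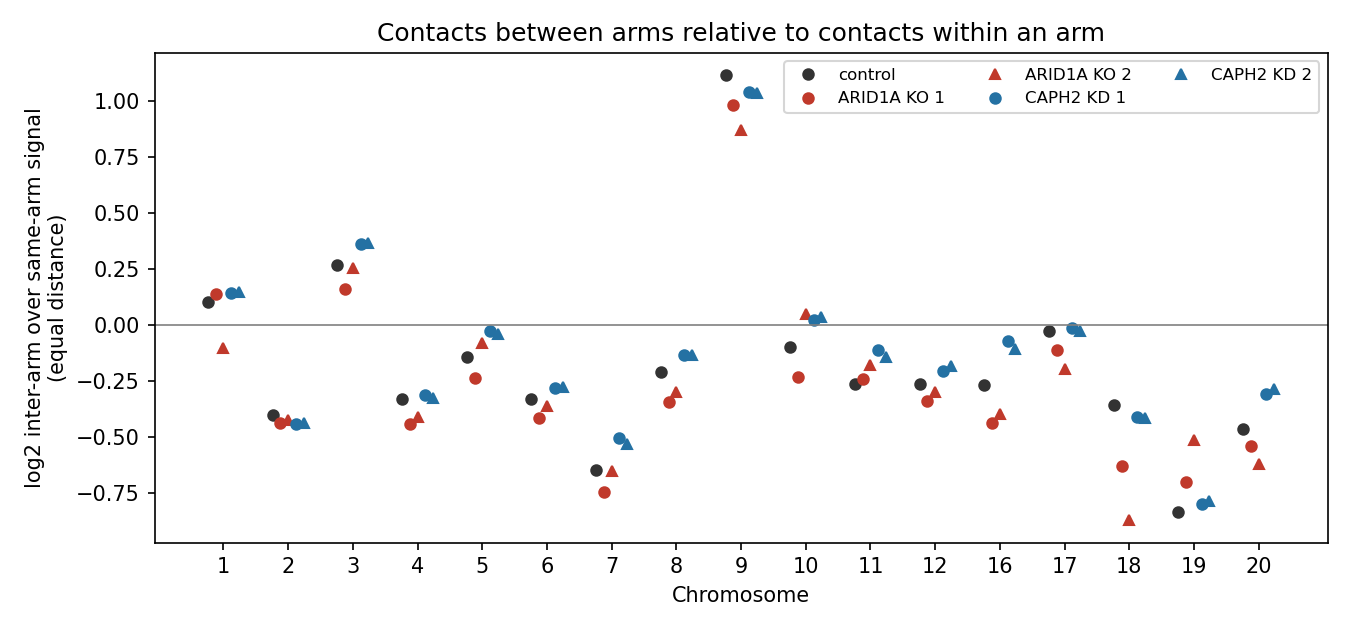
The log2 ratio of inter-arm over same-arm signal at equal distance (y axis) is plotted for each of 17 chromosomes (x axis) and each of 5 libraries (points; colour is the group, circles are replicate 1 and triangles replicate 2). Chromosome 9 stands at 0.87 or above in all libraries, chromosomes 7, 19 and 20 lie lowest in the control, and the KD points lie above the control on 14 of 17 chromosomes.

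The ratio varied with distance, with its lowest class shared by all libraries. Pooled over chromosomes in the control, inter-arm signal was 1.03 times the same-arm signal at 4 to 10 Mb (57 matched pairs on 9 chromosomes), 0.952 times at 10 to 20 Mb (1381 pairs on 15), 0.744 times at 20 to 50 Mb (10730 pairs on 17), 0.910 times at 50 to 100 Mb (25514 pairs on 14) and 1.12 times at 100 Mb and over (8524 pairs on 6). The fold was thus lowest at 20 to 50 Mb, and that class was also the lowest in each KO and KD library, between 0.676 and 0.756 times. The pair counts given are of inter-arm pairs, while the same-arm mean at a distance could rest on as few as 5 pairs. The libraries separated most at 10 to 20 Mb, the pairs that span the centromere closely. There the fold was 0.809 and 0.80 in the KO and 1.01 and 1.01 in the KD, on either side of the control's 0.952. Against trans, the control's inter-arm signal per pair was 44.1-fold at 4 to 10 Mb, 19.9-fold at 10 to 20 Mb, 8.39-fold at 20 to 50 Mb, 3.75-fold at 50 to 100 Mb and 2.58-fold at 100 Mb and over. Even the most distant inter-arm pairs therefore lay above trans pairs, and in each KO and KD library this fold was at least 2.46.

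**Figure D2:**
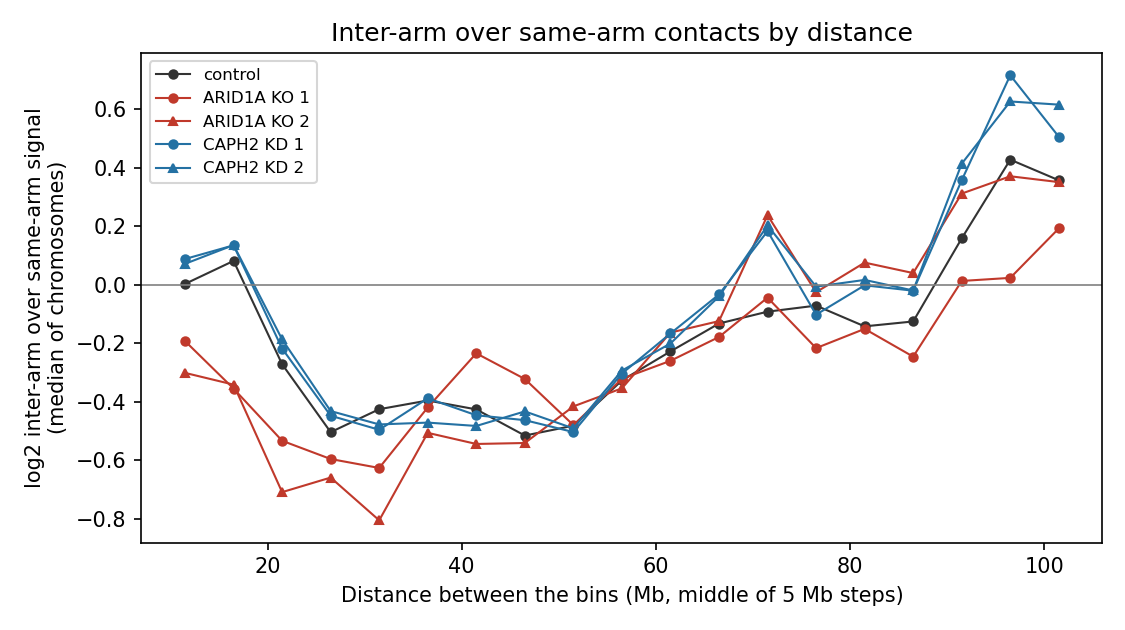
The median over chromosomes of the log2 ratio of inter-arm over same-arm signal (y axis) is plotted against the distance between the bins in steps of 5 Mb (x axis), with 1 line per library and at least 4 chromosomes per point. In the step from 14 Mb the control is at 0.08, the KO lines at -0.35 and -0.34 and the KD lines at 0.14 and 0.14, while in the step from 49 Mb all lines lie between -0.50 and -0.42.

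The level of inter-arm signal was lower in the KO than in the control on every chromosome, but no single difference passed the test. The level is the log2 of the mean balanced signal per bin pair, in ppm of the library's signal between bins. The 17 inter-arm levels and 763 trans levels between arms of different chromosomes (and the 6 chromosomes not split into arms) were tested together with limma, with Benjamini-Hochberg adjustment over all 780, and a difference was called at an adjusted p under 0.05. Both KO libraries lay below the control on 17 of 17 chromosomes, while that was so for 20.9% of all 780 arm pairs, and the median difference was -0.23 for the 17 and 0.03 for the 780. limma called 0 of 17 (background 0.128%), with 14 of 17 at an unadjusted p under 0.05, against 165 of all 780. The control's single library and the spread between the KO libraries limit this test.

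The smallest p-value belonged to chromosome 11. Its level was -0.62 in the control, -0.93 and -0.96 in the KO and -0.60 and -0.62 in the KD, so both KO libraries lay clearly below the others. The difference of KO from control was -0.33 (SE 0.0347, limma adjusted p = 0.0761). Chromosome 8 had -0.62 in the control, -0.89 and -0.94 in the KO and -0.63 and -0.63 in the KD, a difference of -0.29 (limma adjusted p = 0.0761). Chromosome 7 had -0.85, -1.08, -1.10, -0.80 and -0.79 in the same order, a difference of -0.24 (limma adjusted p = 0.0761). The largest difference was on chromosome 18, with 0.61 in the control, 0.20 and -0.15 in the KO and 0.32 and 0.33 in the KD. There the KO libraries lay far apart, and the KD libraries also lay below the control. The smallest was on chromosome 1, at -0.02, with -1.21 in the control against -1.21 and -1.23 in the KO.

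In recovered contacts, where yield is not balanced away, the KO was lower than the control on 13 of 17 chromosomes and 7 were called lower (4, 5, 3, 7, 8, 11 and 18). Chromosome 1 was called higher (0.14, limma adjusted p = 0.0429), and chromosomes 17, 19 and 20 were above 0 and not called. On that scale 361 of all 780 arm pairs were called, 284 of them higher. The sign of chromosomes 1, 17, 19 and 20 thus turned from the balanced signal to recovered contacts. The median recovered total per bin of chromosome 18 was 0.747 times the library's median in the control, against 0.487 and 0.463 in the KO, and that of chromosome 19 was 0.865, against 1.24 and 1.20. The part of these yields in the result was not tested. With KO replicate 1 left out 16 of 17 chromosomes were called lower on balanced signal, and 576 of all 780 arm pairs were called (456 higher, 120 lower). With KO replicate 2 left out 16 of 17 were called lower as well, and 473 of 780 in all (231 higher, 242 lower). In both cases the lone KO library is assumed to vary like the KD libraries. With KD replicate 1 or KD replicate 2 left out, 2 were called lower, of 8 in all.

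In the KD the inter-arm level lay near that of the control. Its libraries were both above the control on 5 chromosomes and both below on 10, with a median difference of -0.01, while 92.9% of all arm pairs lay above the control and 3.97% below (median 0.09). Trans arm pairs made up most of these, with 94.4% above. limma called 0 of 17 (background 0%), with 0 at an unadjusted p under 0.05, against 198 of all 780. The balance of directions turned with the setting: by group means 7 chromosomes lay above and 10 below the control, but 11 above and 6 below (median 0.02) without the 5 Mb beside the centromere. The smallest p-values were those of chromosome 18 (-0.29, limma adjusted p = 0.246), chromosome 17 (-0.17, limma adjusted p = 0.246) and chromosome 12 (-0.07, limma adjusted p = 0.267). On chromosome 17 the level was -0.45 in the control, -0.63 and -0.84 in the KO and -0.62 and -0.63 in the KD. On chromosome 12 it was -1.06, then -1.21 and -1.27 in the KO and -1.14 and -1.14 in the KD. On these 3 chromosomes all 4 KO and KD libraries lay below the control. Measured against each library's mean trans signal in place of its total, all 17 chromosomes lay below the control in the KD, with a median of -0.10 and 0 called. The median of all 780 arm pairs was 0.004 on that scale. With KO replicate 1 or KO replicate 2 left out, 7 of 17 were called on the scale of the total, 1 higher and 6 lower, among 664 of all 780 arm pairs called (648 higher, 16 lower).

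**Figure D3:**
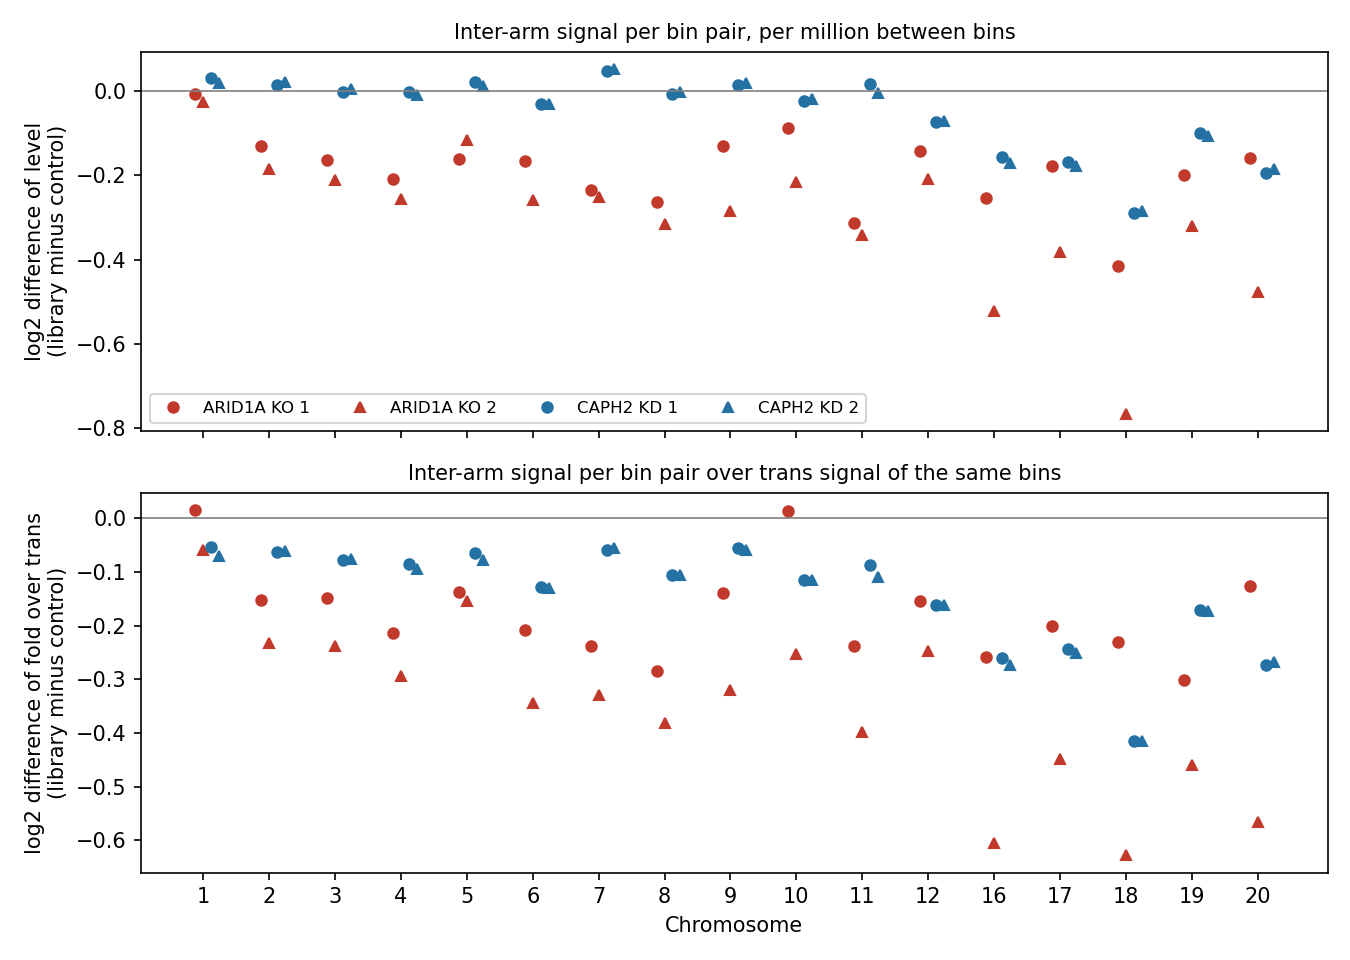
The upper panel plots the log2 difference of the inter-arm level from the control (y axis) for each of 17 chromosomes (x axis) and each KO and KD library (points), and the lower panel the same for the fold of inter-arm over trans signal of the same bins. KO points lie below 0 on all 17 chromosomes in the upper panel, the KD points lie near 0 on chromosomes 1 to 11 and below 0 from chromosome 12 on, and in the lower panel the KD points lie below 0 on all 17.

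Between the KO and the KD, 7 of 17 inter-arm levels were called, all lower in the KO, against 14.6% of all arm pairs called (12.4% lower). The KO libraries both lay below both KD libraries on 16 of 17 chromosomes, against 59.0% of all arm pairs, and the median difference was -0.18 against -0.06. The 5 with the smallest p were chromosome 11 at -0.33 (SE 0.0283, limma adjusted p = 0.010), chromosome 7 at -0.29 (SE 0.0261, limma adjusted p = 0.0106), chromosome 8 at -0.28 (SE 0.0308, limma adjusted p = 0.0144), chromosome 4 at -0.23 (SE 0.0299, limma adjusted p = 0.0212) and chromosome 3 at -0.19 (SE 0.0302, limma adjusted p = 0.0283). Chromosomes 2 and 5 were called as well. On chromosome 4 the level was -1.20 in the control, -1.41 and -1.46 in the KO and -1.20 and -1.21 in the KD, and on chromosome 3 it was -1.47, -1.63, -1.68, -1.47 and -1.47. With the mean trans signal as the scale 2 of 17 were called lower, among 126 of 780 arm pairs (72 higher, 54 lower). In recovered contacts 8 were called lower and 3 higher (chromosomes 1, 17 and 19), among 407 of 780 (249 higher, 158 lower). The count was 3 of 17 with KD replicate 1 or KD replicate 2 left out (51 of all 780 arm pairs), 17 with KO replicate 1 left out (522 of 780) and 14 with KO replicate 2 left out (630 of 780).

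Relative to same-arm contacts at equal distance, the KO lay mostly below and the KD mostly above the control. Over all distances both KO libraries were below the control on 12 of 17 chromosomes and above on 2, with a median difference of -0.06. Both KD libraries were above it on 14 and below on 3, with a median difference of 0.07. The KO lay below the KD on 14 of 17, with a median difference of -0.12. These values, with the ratios of each chromosome in up to 5 distance classes, gave 78 ratios that were tested together with limma. The classes of a chromosome share bins, so the 78 are not independent. Of the 78, 56.4% lay below and 10.3% above the control in both KO libraries, 73.1% lay above and 16.7% below it in both KD libraries, and 65.4% lay lower in both KO than in both KD libraries.

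The separation was greatest at 10 to 20 Mb. In that class both KO libraries lay below the control on 13 of 15 chromosomes (median difference -0.27), both KD libraries above it on 11 of 15 (median 0.08), and the KO below the KD on 14 of 15 (median -0.35). On chromosome 8 the ratio in this class was 0.21 in the control, -0.16 and -0.35 in the KO and 0.27 and 0.27 in the KD. On chromosome 11 it was 0.30 in the control, 0.01 and 0.04 in the KO and 0.39 and 0.37 in the KD. In both cases the control and the KD had more inter-arm than same-arm signal at that distance. The KO had less on chromosome 8 and about equal signal on chromosome 11. The lower ratio of the KO was not seen at 50 to 100 Mb, the class with most matched pairs. Both KO libraries lay below the control there on 2 of 14 chromosomes and above it on 2 (median -0.01). Both KD libraries lay above it there on 11 of 14 (median 0.08).

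None of the 78 ratios was called between KO and control (background 0%; 11 at an unadjusted p under 0.05 in limma), and none between KD and control (background 0%; 2 at an unadjusted p under 0.05). The smallest p-values of KO against control were those of chromosome 1 at 100 Mb and over (-0.35), chromosome 8 at 10 to 20 Mb (-0.46) and chromosome 19 at 20 to 50 Mb (0.39), each with a limma adjusted p of 0.260. Chromosome 19 went the other way from the rest, with a ratio of -1.04 in the control, -0.72 and -0.56 in the KO and -1.03 and -0.96 in the KD. For KD against control they were chromosome 20 at 4 to 10 Mb (0.44, limma adjusted p = 0.224), chromosome 6 at 100 Mb and over (0.43, limma adjusted p = 0.652) and chromosome 16 at 20 to 50 Mb (0.19, limma adjusted p = 0.863). The ratio of chromosome 20 at 4 to 10 Mb rests on very few bin pairs. Only the longest distance of that class met the minimum of 5 inter-arm pairs there. With the same-arm signal pooled over chromosomes, the differences of chromosome 1 and chromosome 19 (KO) and of chromosome 16 (KD) changed sign, to 0.08, -0.05 and -0.10.

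Between KO and KD 9 of the 78 ratios were called (11.5%), all lower in the KO, each with a limma adjusted p of 0.0413. Chromosome 20 at 4 to 10 Mb, a ratio of very few bin pairs as said above, differed by -0.40 (SE 0.0601). It had -0.58 in the control, -0.54 and -0.54 in the KO and -0.12 and -0.15 in the KD, so here the KD libraries stood apart and not the KO libraries. Chromosome 10 at 10 to 20 Mb differed by -0.51 (SE 0.0832), with 0.14, -0.26, -0.09, 0.33 and 0.34 in the order control, KO and KD. Chromosome 8 at 10 to 20 Mb differed by -0.53 (SE 0.0874), chromosome 11 by -0.36 (SE 0.0598) and chromosome 20 by -0.38 (SE 0.0661) in that class. The other 4 were chromosome 16 over all distances and at 20 to 50 Mb, and chromosomes 6 and 1 at 100 Mb and over. The calls ended, with 0 left, without a filter on bins, with same-arm signal pooled over chromosomes and with at least 20 bin pairs per distance, and 2 were left without the 5 Mb beside the centromere. With KD replicate 1 or KD replicate 2 left out 0 of 78 were called, with KO replicate 1 left out 53 (45 lower) and with KO replicate 2 left out 56 (50 lower). In recovered contacts 14 of 15 chromosomes were lower in the KO than in the KD at 10 to 20 Mb, with a median difference of -0.26.

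Where on the arms the contacts lay was examined in 3 ways, each as a log2 ratio per chromosome. Mirror pairs join bins that lie at like distances from the centromere (within 5 Mb), and were set against other inter-arm pairs at the same distance. A chromosome folded at its centromere places such bins side by side. They were close to the level of other pairs, with medians over 17 chromosomes of 0.07 in the control, 0.02 and 0.09 in the KO and 0.12 and 0.12 in the KD, and a range in the control from -0.40 to 0.33. Both KD libraries lay above the control on 14 chromosomes and both KO libraries on 6, and limma called none. Over all 51 ratios of this paragraph and the next ones, 47.1% lay above and 47.1% below the control in both KD libraries, and 17.6% above and 47.1% below in both KO libraries.

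The flanks of the centromere gave the most even difference between the KD and the control. The signal between the 10 Mb on the short-arm side and the 10 Mb on the long-arm side of the same centromere was set against the signal of those flanks with the flanks of the other 16 chromosomes. The median ratio was 4.23 in the control (18.8-fold), 3.98 and 3.65 in the KO and 3.75 and 3.80 in the KD. Both KD libraries lay below the control on 17 of 17 chromosomes and both KO libraries on 13. On chromosome 12 the ratio was 4.31 in the control, 3.98 and 4.04 in the KO and 3.93 and 3.92 in the KD. On chromosome 5 it was 3.71, then 3.61 and 3.65 in the KO and 3.37 and 3.35 in the KD, so the KD libraries were the lowest there.

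The 2 terms of this ratio were then taken apart. In the KD the trans signal among centromere flanks lay above the control on 17 of 17 chromosomes, with a median difference of 0.30, against 0.09 for all 763 trans arm pairs. The signal between the flanks of the same centromere lay below the control on 16, with a median difference of -0.10. For the whole inter-arm level these were 10 of 17 and -0.01. In the KO the trans term differed between the libraries, with medians of -0.11 and 0.18. The signal between flanks of the same centromere was below the control on 14 chromosomes, with medians of -0.17 and -0.39. That count is not particular to the flanks, since the whole inter-arm level was below the control on 17 of 17 (median -0.23). In recovered contacts the KD gave 17 of 17 above for the trans term (median 0.28) and 17 of 17 below for the flanks of the same centromere (median -0.12).

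The ends of the chromosomes gave a less even picture. The signal between the outer 10 Mb of the short arm and the outer 10 Mb of the long arm, set against the signal among ends of different chromosomes, had a median of 1.07 in the control (2.10-fold), 0.91 and 1.01 in the KO and 1.34 and 1.30 in the KD. Both KD libraries lay above the control on 10 chromosomes and below it on 5. Chromosomes 3 and 9 were below 0 in all 5 libraries (-0.25 and -0.20 in the control), so their own ends met less often than ends of different chromosomes did. Chromosome 18 was the highest with 3.02 in the control, 2.54 and 2.45 in the KO and 2.58 and 2.59 in the KD, and all 4 KO and KD libraries lay below the control. On chromosome 11 the ratio was 1.27 in the control, 0.82 and 1.01 in the KO and 1.57 and 1.56 in the KD. There the KO lay below and the KD above the control.

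The 51 ratios of mirror pairs, ends and flanks were tested together, and limma called none in any comparison (background 0% in each; 6, 4 and 4 at an unadjusted p under 0.05 for KO against control, KD against control and KO against KD). For KO against control the smallest p-values were those of the ends of chromosome 18 (-0.52, limma adjusted p = 0.175), the flanks of chromosome 12 (-0.30) and the ends of chromosome 17 (-0.31, both 0.237 in limma). For KD against control they were the ends of chromosome 18 (-0.43) and the flanks of chromosomes 12 (-0.38) and 5 (-0.36), each at a limma adjusted p of 0.140. For KO against KD they were the ends of chromosome 11 (-0.66, limma adjusted p = 0.136), the flanks of chromosome 5 (0.28) and the ends of chromosome 16 (-0.26, both 0.238 in limma). A fit of the control and KD libraries alone, in which the spread of the KO libraries does not enter, called all 17 flank ratios lower and 34 of the 51 in all. Leaving out KO replicate 1 or KO replicate 2 amounts to this same fit, since a lone KO library adds no spread. The calls ended with KD replicate 1 or KD replicate 2 left out. For KO against control 33 were called with KO replicate 1 left out and 21 with KO replicate 2 left out.

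**Figure D4:**
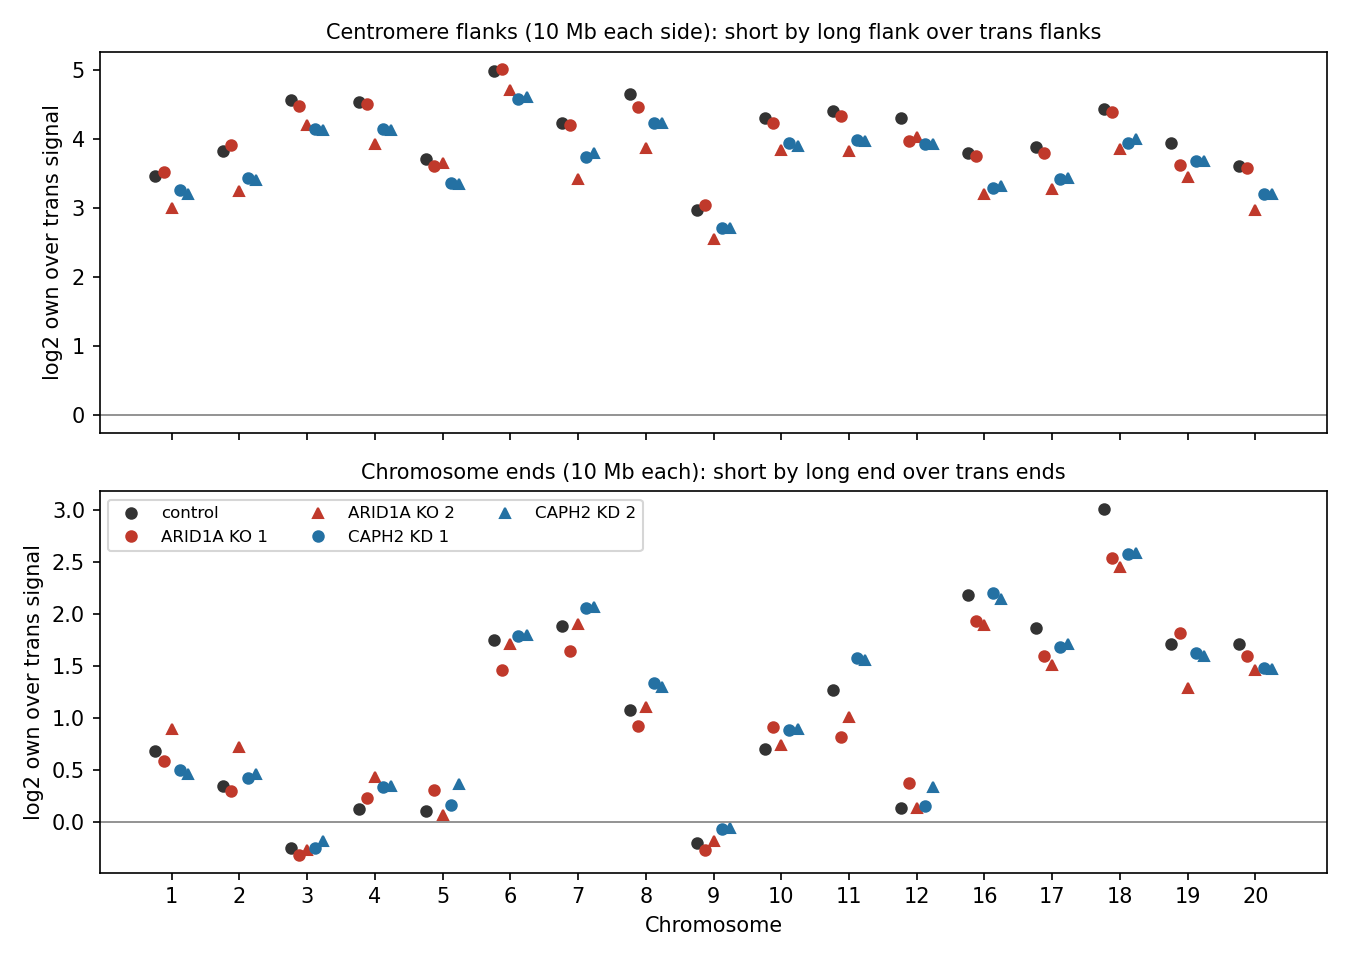
The upper panel plots, for each of 17 chromosomes (x axis) and 5 libraries (points), the log2 ratio (y axis) of signal between the 2 flanks of a centromere over signal of these flanks with flanks of other chromosomes, and the lower panel the same for the chromosome ends. KD points lie below the control on all 17 chromosomes in the upper panel, and chromosome 18 is the highest of the lower panel at 3.02 in the control.

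Inter-arm contacts followed the compartments, and the contrast was weaker in the KO than in the control and stronger in the KD. Bins were placed on an axis from the control's trans contacts, and the outer 20% at each end were taken as A and B. The A end was the one where bins had more trans over cis signal (correlation with the axis 0.65). The inter-arm signal over that expected at its distance was 1.60 for A with A and 1.44 for B with B in the control, against 0.445 for A with B. The mean of the like pairs over the unlike pairs was 3.41 in the control, 2.82 and 3.20 in the KO and 3.63 and 3.75 in the KD. For same-arm pairs of 4 Mb and over it was 3.65, 2.96, 3.46, 4.03 and 4.27 in the same order. In each library the contrast between arms was lower than within arms, and the order of the groups was the same for both. The axis was made from the control, and no test was made of these single values.

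Seen from single bins, the share of a bin's cis signal that reached the other arm was highest next to the centromere and lower farther away. Short-arm bins gave a median of 11.1% in the control, 9.65% and 9.91% in the KO and 11.7% and 11.6% in the KD. Except on chromosome 1 (119 short-arm and 102 long-arm bins), they face the arm with more measured bins. Long-arm bins gave 5.0% in the control, 4.33% and 4.39% in the KO and 5.22% and 5.22% in the KD. In the control the median was 20.7% for short-arm bins within 5 Mb of the centromere window and 16.9% for long-arm bins there, and 10.2% and 5.93% at 20 to 40 Mb. Out to 80 Mb the medians of both KO libraries lay below the control on both arms. At 100 to 160 Mb they lay above it, with 9.59% and 11.7% against 8.93% for 19 short-arm bins. For 159 long-arm bins they had 2.86% and 2.90% against 2.83%. All 19 short-arm bins lay on chromosome 1, the only one with a short arm longer than 100 Mb. That chromosome also had the smallest difference of inter-arm level between KO and control (-0.02). The highest shares, chosen after their values were seen, were those of chr16:34000001-35000000 (67.8% in the control), chr6:57000001-58000000 (57.6%) and chr1:145000001-146000000 (56.9%). Each of the 3 is the last short-arm or the first long-arm bin measured on its chromosome.

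**Figure D5:**
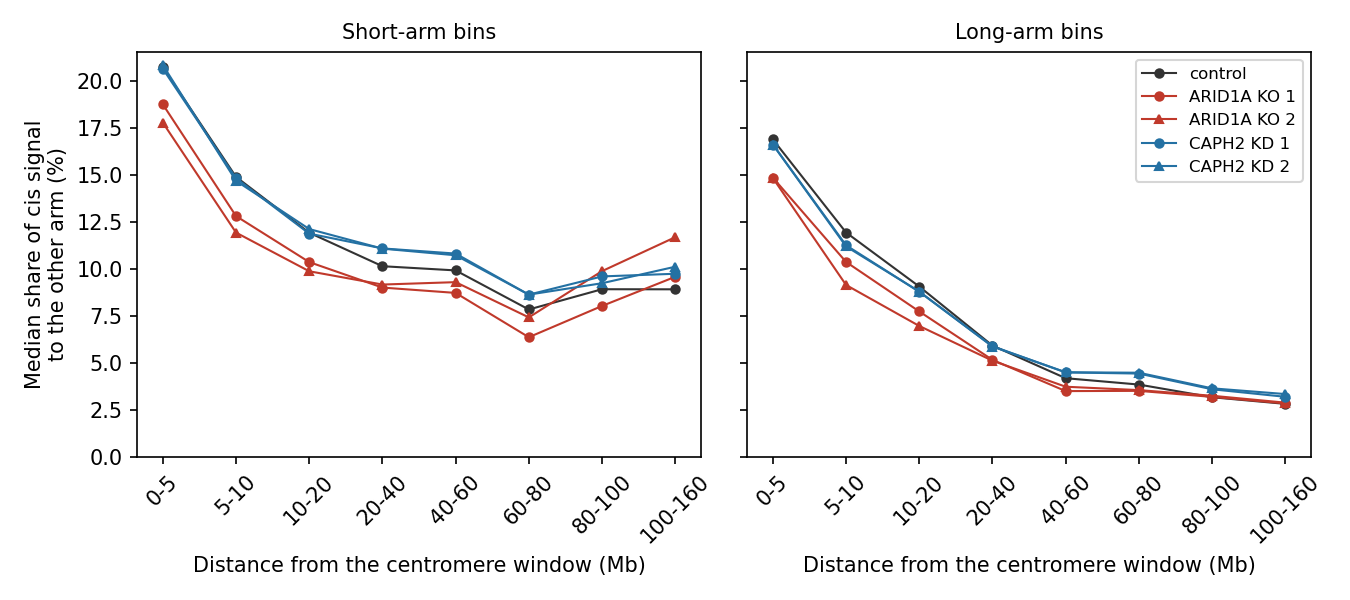
The median share of a bin's cis signal that goes to the other arm (y axis, %) is plotted by distance from the centromere window in classes of unequal width (x axis), for short-arm bins (left) and long-arm bins (right), with 1 line per library. Next to the centromere the share is 20.7% and 16.9% in the control. Both KO lines lie below the control out to 80 Mb and above it at 100 to 160 Mb. In that last class the short-arm bins are those of chromosome 1 alone.

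In both KO libraries this share lay below the control for 1586 of 2306 bins (68.8%), and in both KD libraries it lay above the control for 1483 (64.3%). limma called no bin in either comparison (background 0% in each), with 639 and 260 of 2306 at an unadjusted p under 0.05. B bins were more often below in the KO than A bins: 76.5% of 481 B bins and 56.4% of 468 A bins were below the control in both KO libraries, with median log2 differences of -0.22 and -0.23 against -0.10 and -0.08. For the KD these medians lay between 0.07 and 0.09 in both classes. The recovered totals of B bins were lower and those of A bins higher in the KO, as given above.

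The 3 bins with the smallest p of KO against control all lay on chromosome 18. The share at chr18:65000001-66000000 was 2.78% in the control, 1.32% and 1.24% in the KO and 2.04% and 1.94% in the KD, a log2 difference of KO from control of -1.12 (SE 0.0845, limma adjusted p = 0.105). At chr18:58000001-59000000 it was 2.89%, 1.65%, 1.54%, 2.33% and 2.39%, and at chr18:31000001-32000000 it was 7.03%, 3.95%, 4.15%, 5.80% and 6.0% (limma adjusted p = 0.107 for both). The KO libraries were the lowest in all 3 bins, and the KD libraries lay between them and the control. For KD against control the smallest p-values were those of chr12:133000001-134000000, at the end of the long arm (3.24% in the control, 3.19% and 3.14% in the KO, 4.38% and 4.61% in the KD), the same bin chr18:65000001-66000000, and chr4:179000001-180000000 (1.40%, 1.62%, 1.64%, 1.93% and 1.85%). Each had a limma adjusted p of 0.393.

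Between KO and KD 798 of 2306 bins were called (34.6%), all of them lower in the KO. The share of bins called was highest on chromosome 11 (58.9%, 76 of 129), chromosome 7 (58.5%) and chromosome 8 (53.9%), and lowest on chromosome 1 (8.60%) and chromosome 19 (9.43%). Bins of a chromosome share their contacts and are not independent. The 5 bins with the smallest p were on chromosome 11, and 4 of them lay near the end of its long arm, between chr11:120000001-121000000 and chr11:126000001-127000000. At chr11:125000001-126000000 the share was 4.08% in the control, 2.89% and 2.75% in the KO and 4.71% and 4.86% in the KD, a log2 difference of -0.76 (SE 0.0655, limma adjusted p = 0.0269). At chr11:23000001-24000000, on the short arm, it was 8.99%, 6.39%, 6.14%, 9.81% and 9.69%, a log2 difference of -0.64 (limma adjusted p = 0.0269). The KO libraries lay below and the KD libraries above the control in all 5 bins. In the 7 bins from chr11:120000001-121000000 to the one that ends at 127000000, the median recovered total per bin was 0.788 times the library's median in the control, 0.563 and 0.578 in the KO and 0.780 and 0.797 in the KD, and the part of this yield in the result was not tested. With KD replicate 1 or KD replicate 2 left out, or with the share taken of all signal between bins, trans included, 0 bins were called. With KO replicate 1 left out 1800 were called (1759 lower), and with KO replicate 2 left out 1734 (1698 lower).

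The strongest single inter-arm pair of the control, over the signal expected at its distance, joined chr17:20000001-21000000 and chr17:62000001-63000000. It leads 6 pairs, the highest when at most 1 pair was taken per chromosome. This pair had 25.9 times the expected signal in the control, 27.9 and 30.8 times in the KO and 33.7 and 29.8 times in the KD, from 141.5 contacts in the control and 121.5 to 244.5 in the other libraries. It was strong in all 5 libraries, and its short-arm bin had a recovered total of 0.342 times the control's median. The pair chr11:1-1000000 with chr11:64000001-65000000 starts at the end of the short arm and had 11.3 times the expected signal in the control, 6.52 and 8.43 times in the KO and 8.34 and 10.3 times in the KD. The strongest pairs of chromosomes 3, 1, 5 and 9 were less steady. The pair chr3:2000001-3000000 with chr3:99000001-100000000 had 15.4 times in the control, 9.98 and 5.44 times in the KO and 2.37 and 3.05 times in the KD. The pair chr1:37000001-38000000 with chr1:152000001-153000000 had 12.3 times in the control and 2.96 to 6.38 times in the others. These 4 pairs rested on 25 to 43 contacts in the control. The expected signal was the mean of same-arm pairs at that distance, which could be as few as 5. The pairs of chromosomes 3, 1 and 5 lay at 97, 115 and 125 Mb, where the longest matched distances were 100, 115 and 126 Mb. The chromosome 3 pair held 26 contacts in the control, 9 and 6 in the KO and 15 and 27 in the KD. All 6 pairs were picked for their value in the control, so a lower value in another library is no finding. In a further setting strong pairs were left out by another expected signal. It was the mean of all cis pairs of the chromosome at that distance, or the mean of the arm pair in trans. Leaving out all pairs above 5 times that signal in any library turned no direction of the median differences given above. It need not have removed the 6 pairs listed here.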

How the data were processed

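The members and all lists, classes and tests were chosen with earlier results of these data known. The submitters' processing notes name Bowtie2 and hg19. Versions, read filters and the software that binned and balanced the maps: not given in the sources used here. Each library was deposited by the authors as 1 symmetric matrix of contact signal between 1 Mb bins. The deposited signal is balanced, as read from the values: 98.4% to 99.4% of bins had a row sum within 1% of the library's median.

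A balanced value is a number of contacts times a factor per bin, so contacts were recovered from steps shared by rows. Of nonzero values 98.1% to 99.2% came out whole (tolerance 0.05), and most others came out midway. In every bin at least 47.5% of them were odd, so no bin's contacts share the divisor 2. Of 2811 bins (chromosomes 1 to 22 and X) measured in every library, 39 were left out because their recovered total in the control was below 0.25 of the median.

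Tests for counts were planned only if the files held counts. They hold signal, so limma 3.58.1 (lmFit and eBayes, R 4.3.3) was run on log2 values, with all 5 libraries in 1 fit, 2 residual degrees of freedom and Benjamini-Hochberg adjustment at 0.05 over each family. The families were 780 arm pairs, 78 distance ratios, 51 position ratios and 2306 bins. The fit assumes 1 spread for all groups, and the control lends none. KO against control and KD against control share the control. The named features were those called, up to the 5 with the smallest p, or otherwise the 3 with the smallest p. Added to these were the 3 highest and 3 lowest chromosomes by the ratio to same-arm signal in the control and the 6 strongest bin pairs, at most 1 per chromosome. Steps were tested on simulated data. Values were computed with Python 3.11.15, numpy 2.4.6 and pandas 2.3.3. No gene annotation of hg19 was used here.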

Additional observations from a re-analysis of the deposited data

How the results depend on the processing

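Counts here are features called by limma, over all features of a family. In the analysis as reported they were, for KO against control, KD against control and KO against KD, 1, 0 and 114 of 780 arm pairs, 0, 0 and 9 of 78 distance ratios, 0, 0 and 0 of 51 position ratios and 0, 0 and 798 of 2306 bins. With only the groups compared in the fit, arm pairs gave 8 for KO against control and 664 for KD against control, and KD against control gave 31 distance ratios, 34 position ratios and 833 bins; the KD libraries lie close together, and the wider spread of the KO libraries then does not enter. In recovered contacts arm pairs gave 361 (284 higher, 77 lower) for KO against control and 407 (249 higher, 158 lower) for KO against KD, distance ratios 25 and position ratios 1 for KO against KD, and the median difference of the ratio to same-arm signal became -0.12 (KO against control) and -0.17 (KO against KD). Scaled to all signal, within-bin included, arm pairs gave 21 for KO against control and 529 (4 higher, 525 lower) for KO against KD. Over the mean trans signal KO against KD gave 72 higher and 54 lower, against 17 and 97 as reported. Distance ratios of KO against KD gave 0 with at least 20 bin pairs per distance, 0 with no filter on bins, 0 with pooled same-arm signal and 2 without the 5 Mb beside the centromere. Ends and flanks of 20 Mb gave 1 position ratio for KO against KD, and bins gave 0 with the share of all signal. The median differences were -0.032, 0.041 and -0.072 with at least 20 bin pairs (12 chromosomes) and -0.15 for KO against KD with the median signal per distance. Beyond the construction of each alternative, the cause was not tested. With a minimum of 0.5 of the median total chromosome 17 lost its short arm, leaving 741 arm pairs.

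Leaving out each library in turn gave, for KO against control, KD against control and KO against KD, 8 to 576, 0 to 664 and 51 to 630 arm pairs, 0 to 46, 0 to 31 and 0 to 56 distance ratios, 0 to 33, 0 to 34 and 0 to 38 position ratios, 0 to 1264, 0 to 833 and 0 to 1800 bins, and medians of -0.092 to -0.035, 0.057 to 0.075 and -0.15 to -0.11. Of the features named by their p, 3 changed sign under an alternative, all with pooled same-arm signal: chromosome 1 at 100 Mb and over (0.083) and chromosome 19 at 20 to 50 Mb (-0.048) for KO against control, and chromosome 16 at 20 to 50 Mb (-0.10) for KD against control. Among the inter-arm levels of all 17 chromosomes, those of 1, 17, 19 and 20 turned sign in recovered contacts for KO against control, to 0.14, 0.23, 0.38 and 0.02, and those of 1, 16, 17, 19 and 20 for KO against KD, to 0.12, 0.15, 0.46, 0.56 and 0.24.

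The replicate numbers do not pair the libraries by any label, and same-numbered KO and KD libraries deviated with correlations of 0.05 (arm pairs), -0.11 (distance ratios), -0.03 (position ratios) and -0.04 (bins). With the replicate number as a block the counts were 11, 0 and 170 arm pairs, 0, 0 and 6 distance ratios, 0 position ratios in each comparison and 0, 0 and 699 bins. A crossed pairing, added after the data were seen, gave 0 distance ratios in each comparison. The depth limits single bin pairs: 4.16% and 5.04% of inter-arm pairs had no contact in the KO libraries, against 1.30% in the control.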
